A study of Mus musculus with 12 samples.

Results

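Genes of the retinal pigment epithelium (RPE) and of the visual cycle were followed through 12 RNA-seq libraries of mouse retina. The 8 members, *Rpe65*, *Lrat*, *Rdh5*, *Ttr*, *Best1*, *Rgr*, *Pmel* and *Tyrp1*, were picked by name for their known roles and matched by exact gene symbol, and all 8 were found among the 55487 genes of the gene table. Expression was given as FPKM, fragments scaled to transcript length and library size. Since the RPE is a separate layer that can stay on a dissected retina to a varying degree, the members' levels hold carried-over tissue as well as any response, and in bulk samples fewer cells of a type and less RNA per cell cannot be told apart.

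The libraries formed 6 groups of 2. Wild-type retinas (WT, B6J mice on the C57BL/6J background), retinas of WT mice infected with an AAV2.7m8 vector carrying a short hairpin RNA against *Pax6* and GFP (sh*Pax6*), and retinas of mice lacking *Jnk3* (JNK3KO) each received an intravitreal injection of 1 μL of PBS or of 1 μL of 40 mM NMDA, which is 40 nmol. NMDA overstimulates glutamate receptors and injures retinal ganglion cells (RGCs). Each library was made from pooled retinas, more than 3 by the methods, with poly(A) selection, and nothing in the labels says whether the libraries of a group share animals, so the p-values measure only the spread between these libraries. The mice were adult, and the paper gave an age for those that received the vector, but the labels gave neither age nor interval between injection and collection. No library with a control hairpin was among the 12, so infection and knockdown cannot be told apart. The paper described the vector as injected intravitreally in its results, its discussion and a figure legend for the RNA-seq retinas. Its methods heading and several other legends described a subretinal injection, which enters the space between the retina and the RPE.

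The RPE lies behind the photoreceptors, takes up their shed outer segments and renews their chromophore. In the visual cycle, LRAT joins all-trans-retinol to a fatty acid, RPE65 turns that ester into 11-cis-retinol, and RDH5 oxidizes the product to 11-cis-retinal. RGR is an opsin of the RPE and Müller glia that works in a light-driven branch of the cycle, transthyretin (TTR) carries thyroxine and retinol-binding protein, BEST1 is a chloride channel of the basal RPE membrane, and PMEL and TYRP1 build the fibrils and the pigment of melanosomes.

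The targeted genes were examined first as a check of the labels. *Pax6* was listed at 173 and 177 FPKM under WT PBS and at 94.6 and 92.8 FPKM under sh*Pax6* PBS. *Mapk10*, which encodes JNK3, was listed at 42.8 and 50.7 FPKM under WT PBS and at 9.47 and 8.75 FPKM under JNK3KO PBS. Under PBS each targeted gene was lower in both libraries of its group than in both WT libraries. Under NMDA this did not hold, as *Pax6* was at 67.5 and 58.7 FPKM in sh*Pax6* libraries against 55.4 and 53.8 in WT libraries, and *Mapk10* at 6.65 and 13.8 FPKM in JNK3KO libraries against 8.98 and 6.00 in WT libraries. For *Pax6* both sh*Pax6* NMDA libraries thus lay above both WT NMDA libraries, opposite to the label, and for *Mapk10* the NMDA libraries overlapped. The tissue matched its label. The 7 genes of the photoreceptor list summed to at least 21374 FPKM in each library, while no member exceeded 56.6 FPKM.

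RefSeq promoter sequences were found for 6 of the 8 members, all but *Pmel* and *Ttr*. Those of *Rpe65* (chr3:159598931-159599180 on the plus strand), *Rgr* (chr14:37049015-37049264 on the minus strand) and *Lrat* (chr3:82903975-82904224 on the minus strand) were taken from RefSeq on GRCm38.p6, 3 genes that were each lowest under sh*Pax6* NMDA. They cover the 250 bases before the start site, read 5′ to 3′ on the gene's strand, with matches to CATGTG (an E-box form) and TAATCC (a homeobox site form) in capitals, on either strand.
Rpe65: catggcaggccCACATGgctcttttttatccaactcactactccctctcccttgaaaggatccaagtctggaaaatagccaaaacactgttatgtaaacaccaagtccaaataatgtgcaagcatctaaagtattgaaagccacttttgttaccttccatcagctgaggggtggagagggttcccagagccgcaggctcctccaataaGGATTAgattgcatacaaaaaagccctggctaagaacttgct
Rgr: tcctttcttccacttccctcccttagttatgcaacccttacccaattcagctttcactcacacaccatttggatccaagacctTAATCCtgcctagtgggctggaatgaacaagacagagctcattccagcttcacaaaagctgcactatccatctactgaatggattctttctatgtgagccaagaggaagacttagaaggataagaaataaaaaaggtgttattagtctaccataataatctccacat
Lrat: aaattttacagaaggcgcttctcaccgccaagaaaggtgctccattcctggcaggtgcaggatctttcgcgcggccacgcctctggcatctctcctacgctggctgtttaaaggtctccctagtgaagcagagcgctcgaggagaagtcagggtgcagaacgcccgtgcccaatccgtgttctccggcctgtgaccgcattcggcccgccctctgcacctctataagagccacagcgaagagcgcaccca
The *Rpe65* window held CATGTG 239 bases and TAATCC 42 bases before the start, the *Rgr* window held TAATCC 167 bases before it, and the *Lrat* window held neither. Of the windows not shown, that of *Best1* held TAATCC 227 bases before the start, that of *Tyrp1* held CATGTG 46 bases before it, and that of *Rdh5* held neither. Of all 32851 windows of the same length, 12.3% held CATGTG, 6.3% held TAATCC and 6.0% held the palindrome CACGTG, which was in none of the 6 member windows. A match describes letters only. The last 6 bases of the *Rpe65* window lay inside the gene as annotated by GENCODE, as did the end of the *Tyrp1* window with its CATGTG and the whole *Rdh5* window, so the *Tyrp1* and *Rdh5* windows hold annotated gene sequence. The *Rgr* window ended before the start annotated by GENCODE and did not adjoin it.

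*Rpe65*, the isomerase, was listed at 2.32 and 1.81 FPKM under WT PBS, 0.57 and 0.66 under WT NMDA, 3.11 and 3.19 under sh*Pax6* PBS, 0.11 and 0.35 under sh*Pax6* NMDA, 2.13 and 1.71 under JNK3KO PBS, and 2.51 and 2.91 under JNK3KO NMDA. For WT and for sh*Pax6* both NMDA libraries lay below both PBS libraries, while for JNK3KO they lay above. Since the low values of the table fell on steps, the fragments behind a value could be estimated, and *Rpe65* rested on about 4 fragments in each sh*Pax6* NMDA library against about 107 and 104 in the sh*Pax6* PBS libraries. The 0.35 FPKM of sh*Pax6* NMDA replicate 2 was assigned to a nonsense-mediated decay transcript of 640 bases, and both protein-coding transcripts were listed at 0 there.

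*Lrat*, which supplies the substrate of RPE65, was low throughout. It was listed at 0.63 and 0.65 FPKM under WT PBS, 0.47 and 0.10 under WT NMDA, 0.66 and 0.47 under sh*Pax6* PBS, 0.08 and 0.01 under sh*Pax6* NMDA, 0.54 and 0.60 under JNK3KO PBS, and 0.51 and 0.57 under JNK3KO NMDA. The sh*Pax6* NMDA libraries were the lowest of the 12. No group mean of *Lrat* exceeded 1 FPKM, the limit set for testing, and the same held for *Best1*, so 6 of the 8 members were tested.

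*Rdh5*, which follows RPE65 in the cycle, had another pattern. Its levels were 11.1 and 10.1 FPKM under WT PBS, 16.0 and 14.7 under WT NMDA, 16.2 and 13.3 under sh*Pax6* PBS, 9.61 and 8.21 under sh*Pax6* NMDA, 8.36 and 7.96 under JNK3KO PBS, and 8.43 and 7.29 under JNK3KO NMDA. It stayed above 7 FPKM in every library, and the sh*Pax6* NMDA and JNK3KO libraries overlapped. *Rdh5* overlaps *Bloc1s1* on the same strand of chromosome 10, and *Bloc1s1* was listed at 287 and 328 FPKM under WT NMDA against 67.5 and 81.3 under WT PBS, and how reads shared by the genes were assigned was not tested.

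*Ttr* was the most abundant member, with a mean of 30.1 FPKM over the 12 libraries. It was listed at 30.2 and 36.8 FPKM under WT PBS, 56.6 and 55.8 under WT NMDA, 35.8 and 32.3 under sh*Pax6* PBS, 2.46 and 4.37 under sh*Pax6* NMDA, 22.2 and 25.6 under JNK3KO PBS, and 29.45 and 29.53 under JNK3KO NMDA. The sh*Pax6* NMDA libraries stood far below the other 10, and the WT NMDA libraries above them.

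*Rgr* was listed at 14.7 and 16.1 FPKM under WT PBS, 11.1 and 6.85 under WT NMDA, 12.9 and 15.0 under sh*Pax6* PBS, 0.87 and 0.98 under sh*Pax6* NMDA, 9.55 and 12.9 under JNK3KO PBS, and 10.6 and 12.1 under JNK3KO NMDA. Only the sh*Pax6* NMDA libraries were under 1 FPKM, and the JNK3KO PBS and NMDA libraries overlapped.

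*Best1*, the channel gene, was at most 0.55 FPKM and was listed at 0 in 3 libraries, 1 each of WT NMDA, sh*Pax6* PBS and sh*Pax6* NMDA. Its libraries rested on at most about 22 fragments, and no order of groups was read from it.

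The pigment genes were also low. *Pmel* was listed at 1.15 and 0.80 FPKM under WT PBS, 1.06 and 1.31 under WT NMDA, 1.52 and 0.92 under sh*Pax6* PBS, 0 and 0.52 under sh*Pax6* NMDA, 0.61 and 0.62 under JNK3KO PBS, and 1.10 and 0.81 under JNK3KO NMDA. The sh*Pax6* NMDA libraries were again the lowest, but they differed from each other. *Pmel* shares its ends with *Cdk2* and *Dgka* on the opposite strand, and whether the counting used strand was not stated.

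*Tyrp1* was listed at 1.27 and 1.57 FPKM under WT PBS, 1.03 and 0.84 under WT NMDA, 2.60 and 2.01 under sh*Pax6* PBS, 7.96 and 0.78 under sh*Pax6* NMDA, 1.42 and 0.46 under JNK3KO PBS, and 0.81 and 1.00 under JNK3KO NMDA. The highest and one of the lower values came from the same group. In the library at 7.96 FPKM the level was assigned to short transcripts of 1053 and 529 bases, at 3.59 and 4.36 FPKM, and both full-length transcripts were listed at 0.

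**Figure D1:**
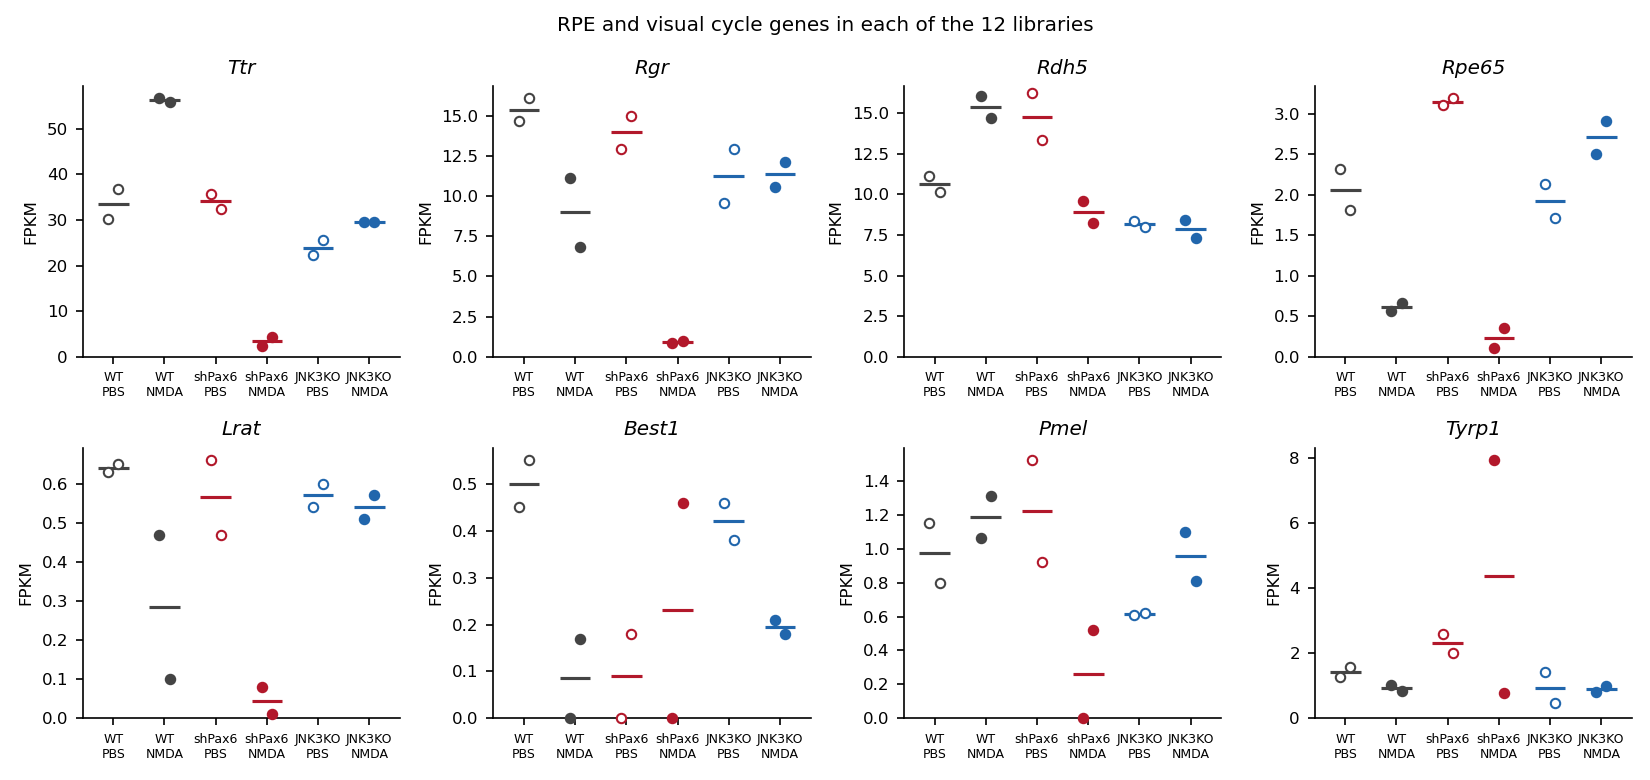
FPKM of each member (vertical axis, own scale for each gene) in the 6 groups, with a point for each library, open for PBS and filled for NMDA, and a bar for the group mean. The sh*Pax6* NMDA libraries lie at 2.46 and 4.37 FPKM for *Ttr* and at 0.87 and 0.98 FPKM for *Rgr*, below the other 10 libraries of each gene.

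In sh*Pax6* retinas NMDA was compared with PBS first. Of the 6 members tested, 5 fell and 0 rose, where 11% of all 16471 genes tested fell and 19.1% rose. Of the genes called, 63.4% were higher, against 44.0% after quantile normalization and 48.3% after the length correction. The mean level under PBS was 15.1 times that under NMDA for *Rgr*, 13.7 times for *Rpe65*, 9.97 times for *Ttr*, 4.69 times for *Pmel* and 1.66 times for *Rdh5*. On the log2(FPKM + 0.1) scale, which understates changes of low genes, *Rgr* fell by 3.78 (SE 0.23, limma, adjusted p = 6.5e-06) and *Ttr* fell by 3.33 (SE 0.22, limma, adjusted p = 9.17e-06). *Rpe65* fell by 3.40 (SE 0.38, limma, adjusted p = 0.000197), *Rdh5* fell by 0.72 (SE 0.14, limma, adjusted p = 0.00476) and *Pmel* fell by 2.37 (SE 0.74, limma, adjusted p = 0.038). *Tyrp1* differed by 0.16 with a 95% interval from -1.82 to 2.14. The median of the 6 was -2.85 against 0.10 over all genes tested. *Lrat*, fitted only when low genes were kept, gave -2.23 (limma, adjusted p = 0.0289), and *Best1* gave 0.50 (limma, adjusted p = 0.848).

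The falls of *Ttr* and *Rgr* passed the threshold under every alternative run, and those of *Rpe65* and *Rdh5* missed it with the spread taken from the compared libraries alone (limma, adjusted p = 0.0598 and 0.118). The difference of *Rdh5*, at -0.72, also lay within the 1 log2 unit of the fold-change rule described below. With a library left out the difference of *Rpe65* lay between -3.95 and -2.85. The fall of *Pmel* was the weakest. Its call was lost in 11 of the 12 fits that left out a library, with the lone exception of sh*Pax6* NMDA replicate 2, and without sh*Pax6* NMDA replicate 1, which listed *Pmel* at 0, the difference was -1.05 and was not called. Without that replicate *Tyrp1* stood at -1.44 (limma, adjusted p = 0.106) in place of 0.16. The same library had 18089 genes above 0, against 19855 in its partner, 18306 in sh*Pax6* PBS replicate 1, 18853 in WT NMDA replicate 1 and between 20304 and 22259 in the other 8.

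In WT retinas the members were called both ways. Of the 6 tested, 2 rose and 2 fell, against 26% and 33.8% of all genes tested, so the share of members called in either direction was near the background. Of the genes called, 43.5% were higher, against 21.4% with libraries scaled to equal sums. *Rpe65* fell by 1.59 (SE 0.38, limma, adjusted p = 0.00512), its level under PBS being 3.36 times that under NMDA. *Rgr* fell by 0.81 (SE 0.23, limma, adjusted p = 0.014). *Ttr* rose by 0.75 (SE 0.22, limma, adjusted p = 0.0149) and *Rdh5* by 0.53 (SE 0.14, limma, adjusted p = 0.00959). *Pmel* at 0.27 (95% interval -1.39 to 1.93) and *Tyrp1* at -0.55 (-2.53 to 1.43) were not called.

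The scale of the WT NMDA libraries bears on these values. Their FPKM summed to 805627 and 820180, against 541210 to 576922 in the other 10 libraries. Scaled to equal sums, the median of all genes tested moved from -0.09 to -0.66, *Rdh5* turned to -0.04 and *Ttr* shrank to 0.18 (limma, adjusted p = 0.838 and 0.508), while the fall of *Rgr* grew to -1.38 (limma, adjusted p = 0.000764). With each library corrected for its trend on gene length, *Ttr*, whose transcript has 1186 bases, turned to -0.15, *Rdh5* shrank to 0.25 and *Rgr* to -0.55, none of them called. The fall of *Rpe65* was called under every alternative, at -2.22 to -0.92. With 1 library left out, *Rdh5* lost its call without WT PBS replicate 2 or WT NMDA replicate 1, and *Ttr* without WT PBS replicate 1 or either WT NMDA library. *Rgr* lost it without WT PBS replicate 2, and without WT NMDA replicate 2 it stood at -0.46 and was not called.

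In JNK3KO retinas 0 of the 6 tested members were called in either direction, where 4.33% of all genes rose and 6.1% fell, and at an unadjusted p under 0.05 the count by limma was also 0. *Rpe65* stood at 0.48 (95% interval -0.37 to 1.33), *Ttr* at 0.31 (-0.19 to 0.80), *Rgr* at 0.03 (-0.50 to 0.56) and *Rdh5* at -0.06 (-0.38 to 0.26). For *Pmel* and *Tyrp1* the intervals were wider, from -1.12 to 2.21 and from -1.86 to 2.10. The intervals of *Rpe65*, *Ttr* and *Rgr* lay above the estimates for sh*Pax6* retinas. The shares of all genes called were lower in each fit that left out a JNK3KO library.

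**Figure D2:**
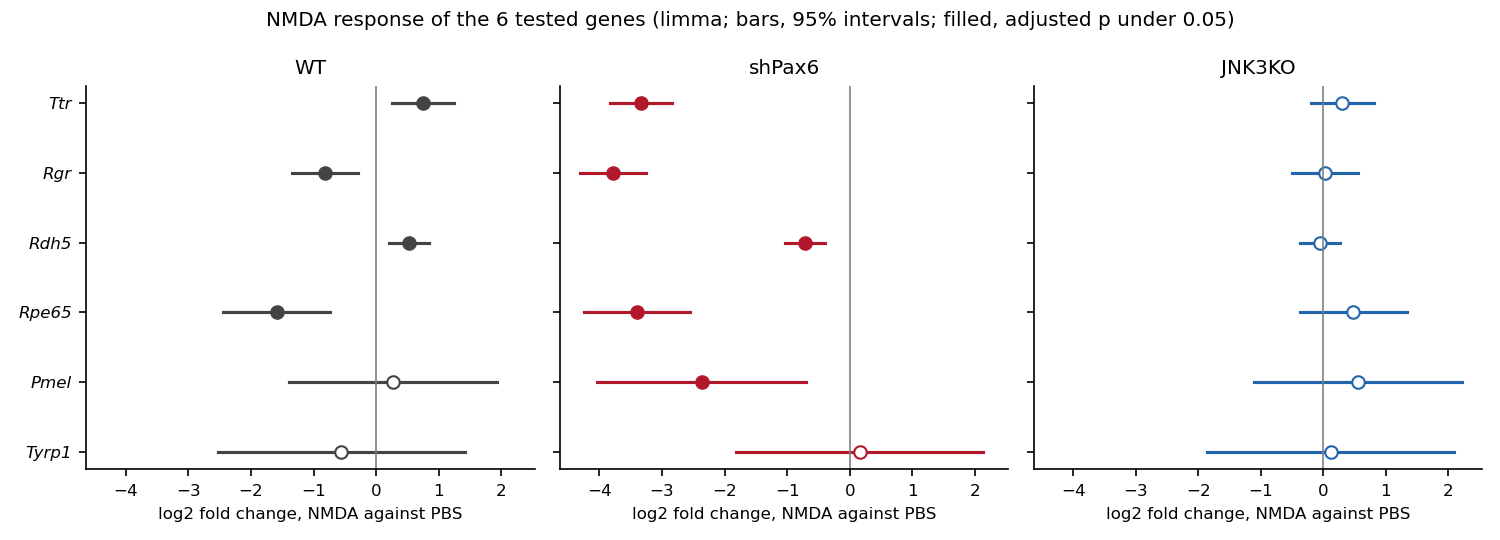
Log2 fold change of the 6 tested members, NMDA against PBS (horizontal axis), in WT, sh*Pax6* and JNK3KO retinas, with 95% intervals from limma, and filled points at an adjusted p under 0.05. *Rgr*, *Ttr* and *Rpe65* lie between -3.78 and -3.33 in sh*Pax6* retinas and between 0.03 and 0.48 in JNK3KO retinas.

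Differences between responses were then tested in the same model. The WT response exceeded the sh*Pax6* response in 4 of the 6 tested members and was below it in 0, where 18.3% of all genes were higher and 31.4% lower. Of the genes called, 36.8% were higher, against 16.3% at equal library sums and 53.5% after the length correction, and the median of all genes moved from -0.28 to -0.80 at equal sums. The difference was 4.09 for *Ttr* (SE 0.31, limma, adjusted p = 1.38e-05), 2.97 for *Rgr* (SE 0.33, limma, adjusted p = 0.000106), 1.25 for *Rdh5* (SE 0.20, limma, adjusted p = 0.000845) and 1.81 for *Rpe65* (SE 0.53, limma, adjusted p = 0.0196). The *Rpe65* difference missed the threshold without WT PBS replicate 2 or WT NMDA replicate 2, at equal library sums, with the length correction, and with the spread from the compared libraries alone. *Pmel* differed by 2.64 (limma, adjusted p = 0.0615), by 3.95 without sh*Pax6* NMDA replicate 2 (limma, adjusted p = 0.000871) and by 1.32 without sh*Pax6* NMDA replicate 1, where it was not called. *Tyrp1* stood at -0.71, at -2.31 without sh*Pax6* NMDA replicate 2 (limma, adjusted p = 0.0337) and at 0.89 without sh*Pax6* NMDA replicate 1, where it was not called.

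Against the JNK3KO response, the WT response was higher for 1 member and lower for 1, where 23.5% of all genes were higher and 27.9% lower. *Rpe65* differed by -2.07 (SE 0.53, limma, adjusted p = 0.00962) and *Rdh5* by 0.59 (SE 0.20, limma, adjusted p = 0.0347). Of the genes called, 45.7% were higher, against 23.2% at equal library sums. At equal sums the *Rdh5* difference vanished at -0.003 and that of *Ttr* turned to -0.14, while that of *Rgr* grew to -1.43 and was called (limma, adjusted p = 0.00605), and with the length correction *Ttr* stood at -0.60. The *Rdh5* call was lost at equal sums, with the length correction and in 6 of the 12 fits that left out a library, those without either WT PBS library, WT NMDA replicate 1, either JNK3KO PBS library or JNK3KO NMDA replicate 2. *Rgr*, at -0.84 (limma, adjusted p = 0.0601), passed the threshold without WT NMDA replicate 1 at -1.18 or without JNK3KO PBS replicate 2 at -1.05, and stood at -0.49 without WT NMDA replicate 2. *Ttr*, at 0.45 (limma, adjusted p = 0.264), passed it without either sh*Pax6* NMDA library at the same difference.

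A comparison of the sh*Pax6* response with the JNK3KO response was added after the values had been seen. The sh*Pax6* response was lower for 3 of the 6 members and higher for 0, where 5.62% of all genes were lower and 12.1% higher. Of the genes called, 68.2% were higher, against 43.2% after quantile normalization and 53.6% after the length correction. The difference was -3.88 for *Rpe65* (limma, adjusted p = 0.00159), -3.81 for *Rgr* (limma, adjusted p = 0.000126) and -3.64 for *Ttr* (limma, adjusted p = 0.000116). *Rdh5* stood at -0.66 (limma, adjusted p = 0.0507), and passed the threshold without sh*Pax6* PBS replicate 2 or sh*Pax6* NMDA replicate 1 (0.0314 and 0.0407). *Pmel* stood at -2.92 (limma, adjusted p = 0.0869), at -4.23 without sh*Pax6* NMDA replicate 2 (0.00246) and at -1.60 without sh*Pax6* NMDA replicate 1, where it was not called. The comparisons of responses share their libraries, so their values are only set side by side.

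Between sh*Pax6* PBS and WT PBS 0 of the 6 were called, where 5.36% of all genes were higher and 11.2% lower in sh*Pax6* retinas (32.4% of calls higher, against 42.5% after quantile normalization and 47.1% after the length correction), and by limma at an unadjusted p under 0.05 there was 1, *Rdh5*. *Rdh5* stood at 0.47 (limma, adjusted p = 0.0538), and was called at 0.61 without sh*Pax6* PBS replicate 2 and at 0.47 without either sh*Pax6* NMDA library. *Rpe65* stood at 0.60 (95% interval -0.26 to 1.45), *Ttr* at 0.03 (-0.47 to 0.53) and *Rgr* at -0.14 (-0.67 to 0.39). The *Ttr* levels of sh*Pax6* PBS and WT PBS libraries overlapped, and so did those of *Rgr*.

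Between JNK3KO PBS and WT PBS 0 of the 6 were called, where 1.1% of all genes were higher and 0.407% lower in JNK3KO retinas (73.1% of calls higher, against 56.6% at equal library sums and 32.1% after quantile normalization), and by limma at an unadjusted p under 0.05 there was again 1, *Rdh5*, at -0.37 (limma, adjusted p = 0.249). All 6 estimates were below 0, with *Ttr* at -0.48 (95% interval -0.98 to 0.02) and *Rgr* at -0.46 (-0.99 to 0.06), and their median was -0.47 against 0.00 over all genes tested. The shares of all genes called were lower in each fit that left out a WT PBS or JNK3KO PBS library.

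The members did not vary as one set. Over the 12 libraries Pearson's r on the log2 scale was 0.91 between *Lrat* and *Rgr*, 0.90 between *Ttr* and *Rgr*, 0.86 between *Rpe65* and *Rgr* and -0.03 between *Rpe65* and *Rdh5*. The libraries share their groups, so these values are descriptions. Without the sh*Pax6* NMDA libraries (n = 10) *Lrat* and *Rgr* gave 0.81 and *Rpe65* and *Rgr* 0.57, but *Ttr* and *Rgr* gave -0.34, and *Ttr* and *Rpe65* went from 0.66 to -0.76. *Ttr* and *Rdh5* went the other way, from 0.46 to 0.77.

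The genes most like the mean of the 6 tested members over the 12 libraries were *Pon1* (r = 0.97), *Slc16a8* (0.96), *Slc6a20a* (0.95), *Serpine3* (0.94), *Slc7a10* (0.94), *Spink13* (0.93), *Stc1* (0.92), *B3gnt9* (0.92), *Vgf* (0.92) and the noncoding RNA *AC156546.1* (0.91). *Slc16a8*, the lactate transporter of the basal RPE membrane, was listed at 3.33 and 2.62 FPKM under sh*Pax6* PBS and at 0 in both sh*Pax6* NMDA libraries. *Slc6a20a*, *Serpine3*, *Slc7a10* and *Spink13* were at 0 in both as well. The members' mean, centred per gene, was lowest in these libraries, at -1.61 and -1.40. Low values there thus helped to select these genes and are not independent of the ranking. *Slc7a10* exceeded a group mean of 1 FPKM only under sh*Pax6* PBS (1.745). Without the sh*Pax6* NMDA libraries (n = 10) r lay between 0.15 for *AC156546.1* and 0.96 for *Serpine3*.

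A list of 18 other RPE and pigment genes was set beside the members. In the sh*Pax6* NMDA libraries 4 of the 18, *Oca2*, *Gpr143*, *Slc24a5* and *Slc16a8*, were listed at 0 in both, which held for 0 of the 18 in each other group. *Gpr143*, *Oca2* and *Slc24a5* did not exceed 0.29, 0.79 and 1.13 FPKM in any library. *Gpr143* and *Oca2* were also at 0 in WT NMDA replicate 1, and *Gpr143* in sh*Pax6* PBS replicate 1 too. The sh*Pax6* NMDA libraries had 18089 and 19855 genes above 0, against 18306 and 20304 under sh*Pax6* PBS. The share of all genes at 0 in both libraries was not analyzed here, so the 4 zeros are not read as a result about these genes. Of the 10 that were tested, 2 fell and 2 rose with NMDA in sh*Pax6* retinas, where 11% of all genes fell and 19.1% rose. *Slc16a8* fell by 4.93 (limma, adjusted p = 8.83e-06) and *Dct*, a melanin enzyme, fell by 1.89 (limma, adjusted p = 0.00219), from 3.01 and 3.36 FPKM under PBS to 1.12 and 0.54. The 2 that rose were *Krt18* and *Sulf1*. The 6 not called all had estimates below 0, from -1.15 for *Clic6* to -0.03 for *Kcnj13*, a potassium channel of the apical RPE membrane, and the median of the 10 was -0.72. *Clic6* exceeded a group mean of 1 FPKM only under sh*Pax6* PBS (2.195), so for it the filter and the lower value under NMDA are not independent. In WT retinas 5 of the 10 fell and 1 rose, with a lower median of -1.44, where 33.8% of all genes fell and 26% rose. At equal library sums the number of all genes falling in WT retinas went from 5569 to 8270. In JNK3KO retinas 1 of the 10 fell and 0 rose, with a median of -0.20, where 6.1% of all genes fell and 4.33% rose. *Kcnj13* fell by 2.93 in WT retinas (limma, adjusted p = 0.00222) and *Enpp2* fell by 1.96 (limma, adjusted p = 6.23e-05). *Sulf1* fell by 0.49 in JNK3KO retinas (limma, adjusted p = 0.00273). Under PBS 2 of the 10 were higher and 1 was lower in sh*Pax6* retinas, where 5.36% of all genes were higher and 11.2% lower. Among them were *Rrh* at 0.81 (limma, adjusted p = 0.0322) and *Sulf1* at -1.17 (limma, adjusted p = 1.58e-05). In JNK3KO retinas 0 were higher and 1 was lower, *Sulf1* at -0.36 (limma, adjusted p = 0.042), where 1.1% of all genes were higher and 0.407% lower. The most abundant gene of the list, the keratin gene *Krt18*, averaged 77.5 FPKM and set much of the summed level, which was 156 and 165 FPKM under sh*Pax6* NMDA and 141 and 133 under sh*Pax6* PBS.

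**Figure D3:**
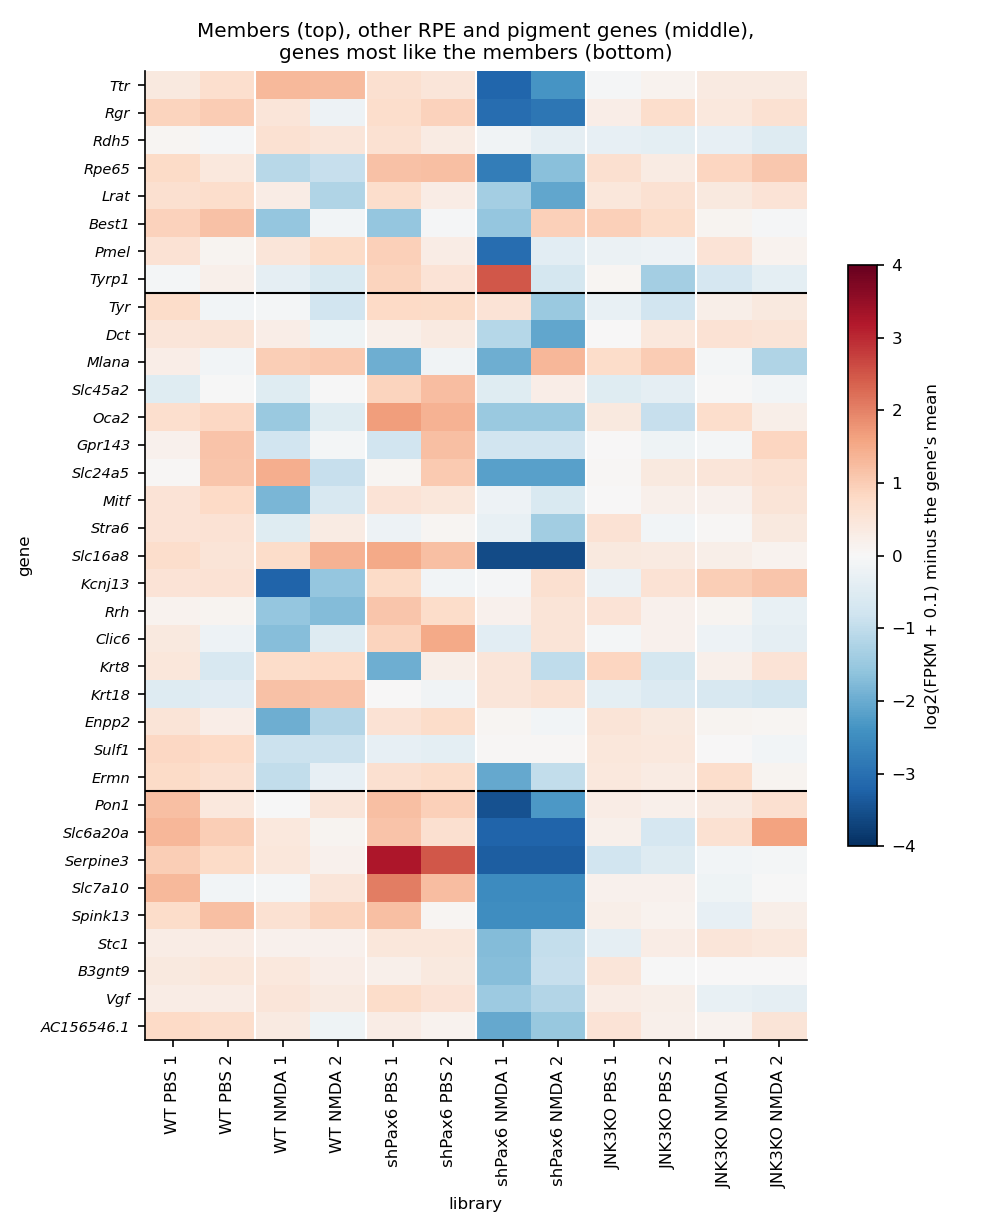
Log2(FPKM + 0.1) minus each gene's mean over the 12 libraries (color, red above and blue below) for the 8 members, the 18 other RPE and pigment genes and the genes most like the members, where *Slc16a8* appears among the RPE genes. Both sh*Pax6* NMDA columns are blue for *Ttr*, *Rgr*, *Rpe65*, *Lrat* and *Slc16a8*, while *Rdh5*, *Kcnj13* and *Krt18* are near their means or above.

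The 12 other retinoid and visual cycle genes, most of them active in photoreceptors or Müller glia, were all tested. In sh*Pax6* retinas 3 rose and 3 fell with NMDA, in WT retinas 6 rose and 3 fell, and in JNK3KO retinas 2 rose and 2 fell. Over all genes, 19.1% rose and 11% fell in sh*Pax6* retinas, 26% and 33.8% in WT retinas, and 4.33% and 6.1% in JNK3KO retinas. *Rlbp1*, which encodes the 11-cis-retinal carrier of RPE and Müller glia, was at 98.7 and 91.5 FPKM under sh*Pax6* PBS and at 84.8 and 106 under sh*Pax6* NMDA, and these libraries overlapped. *Rdh12*, a photoreceptor dehydrogenase, fell by 0.48 in sh*Pax6* retinas (limma, adjusted p = 8.41e-05), and *Rdh8*, which reduces all-trans-retinal in outer segments, fell by 2.03 in WT retinas (limma, adjusted p = 1.39e-06). *Rbp3*, the most abundant at a mean of 1264 FPKM, was between 875 and 1618 FPKM in the 12 libraries. Under PBS 6 of the 12 were higher and 2 lower in sh*Pax6* than in WT retinas, where 5.36% of all genes were higher and 11.2% lower. In JNK3KO retinas 2 were higher and 0 lower than in WT retinas, where 1.1% of all genes were higher and 0.407% lower.

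Markers of other cells also changed in the sh*Pax6* NMDA libraries, some of them opposite to the members, and their part in the members' falls was not tested. All 6 genes of the microglia and macrophage list rose there, where 19.1% of all genes rose. Their summed level was 755 and 759 FPKM under sh*Pax6* NMDA against 159 and 152 under sh*Pax6* PBS, 263 and 259 under WT NMDA, 159 and 168 under WT PBS, 150 and 146 under JNK3KO PBS, and 139 and 136 under JNK3KO NMDA. The most abundant gene was *Lyz2*, which rose by 3.08 in sh*Pax6* retinas (limma, adjusted p = 2.38e-08), and *Cd68* rose by 3.76 (limma, adjusted p = 4.39e-07).

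Of the 6 genes in the choroid and scleral stroma list 4 were tested, and these rose in sh*Pax6* retinas, where 19.1% of all genes rose. However, *Col1a1* and *Col3a1* reached the 1 FPKM needed for testing only in sh*Pax6* NMDA libraries, so for them the filter and the rise are not independent. Their list summed to 25.5 and 27.2 FPKM under sh*Pax6* NMDA and to between 1.65 and 3.91 FPKM in the other 10 libraries, its most abundant gene was *Col1a2*, and *Col1a1* was listed at 5.26 and 5.32 FPKM against 0.64 and 0.27 under sh*Pax6* PBS. The iris and ciliary muscle list of 6 genes, led by *Tagln*, had 4 tested genes that rose, of which *Des* and *Actg2* were likewise admitted by the sh*Pax6* NMDA libraries alone, with sums of 26.2 and 33.4 FPKM against 6.32 and 2.21 under sh*Pax6* PBS.

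The remaining lists were given for the same libraries, and their counts are to be read beside the shares of all genes given above. Of the 5 cornea genes, *Krt12*, *Krt5*, *Krt14* and *Kera* were at 0 in both sh*Pax6* NMDA libraries and at most 0.32 FPKM in any other, *Kera* being at 0 in all 12, and the list, led by *Aldh3a1*, summed to 2.7 and 0.57 FPKM there and to at most 0.60 elsewhere. Of the 9 lens genes, led by *Cryaa*, 2 rose and 2 fell among 6 tested in sh*Pax6* retinas, the sum being 85.7 and 80.9 FPKM under NMDA and 56.0 and 50.2 under PBS, with *Birc7* and *Lim2*, genes at or near 0 in all groups, at 0 under NMDA. Of the 5 endothelial genes, led by *Kdr*, 3 rose and 0 fell, and the sum was 81.1 and 68.7 FPKM against 47.9 and 44.3. The photoreceptor list had 6 of 7 genes fall and 0 rise, from sums of 36720 and 33973 to 21374 and 21726 FPKM, and under PBS all 7 were called higher in sh*Pax6* than in WT retinas, where the sums were 25802 and 25929 FPKM. The Müller glia list of 6, led by *Vim*, had 2 genes rise and 2 fall, with sums of 1004 and 969 FPKM under PBS and 1156 and 1243 under NMDA. The RGC list of 5, led by *Thy1*, had 4 genes fall, from sums of 139 and 135 to 41.7 and 36.2 FPKM. RGC sums also dropped in WT retinas, from 460 and 477 to 283 and 304 FPKM. In JNK3KO retinas RGC sums went from 483 and 444 to 108 and 110 FPKM, with 4 of 5 genes falling. Under PBS they were already lower in sh*Pax6* than in WT retinas, at 139 and 135 against 460 and 477 FPKM, with 4 of 5 genes called lower. In WT retinas NMDA gave 4 rising and 0 falling of 6 tested lens genes, 2 and 0 of 4 for iris and ciliary muscle, 0 and 0 of 4 for stroma, 1 and 1 of 5 for endothelium, 4 and 2 of 7 for photoreceptors, 2 and 4 of 6 for Müller glia, 4 and 1 of 6 for microglia and macrophages and 0 and 4 of 5 for RGCs. In JNK3KO retinas these were 2 and 0, 0 and 0, 0 and 0, 1 and 0, 1 and 5, 3 and 2, 2 and 2 and 0 and 4, and the 1 tested cornea gene was called in none of the NMDA comparisons.

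**Figure D4:**
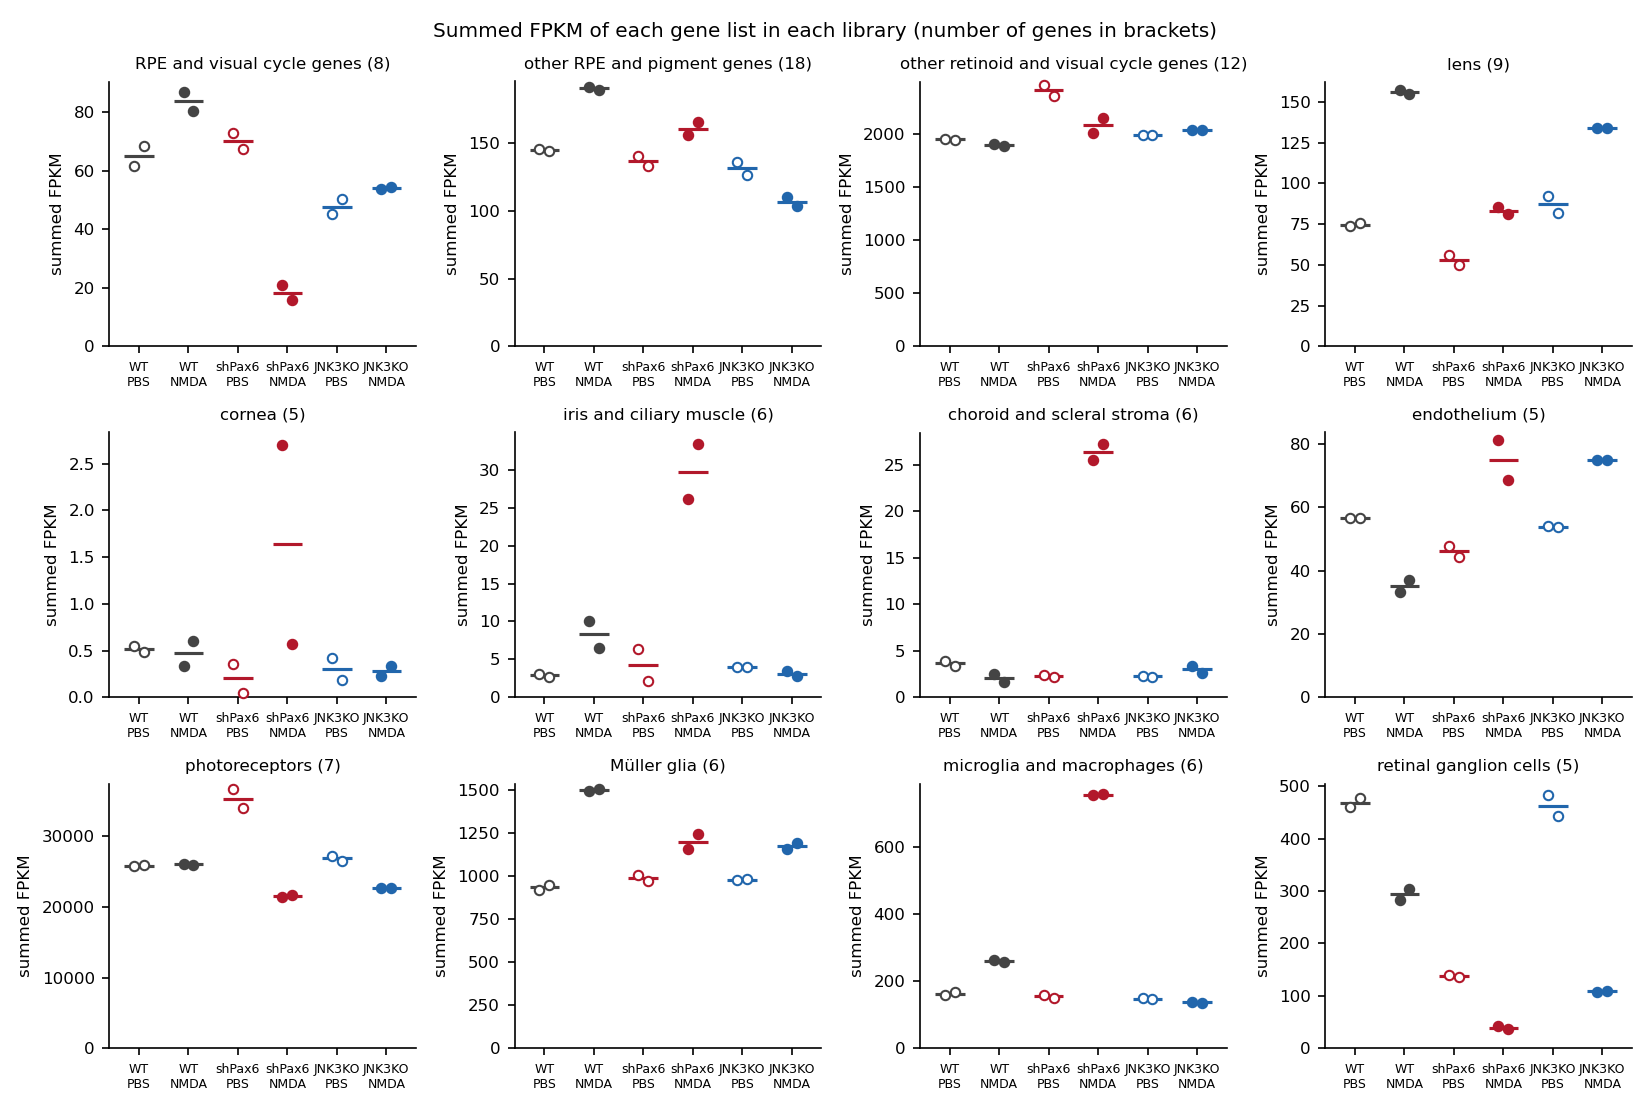
Summed FPKM (vertical axis, own scale for each list) of the members and 11 other gene lists in the 6 groups, with a point for each library, open for PBS and filled for NMDA, and a bar for the group mean. The sh*Pax6* NMDA libraries are lowest for the members, at 21.1 and 15.7 FPKM, and highest for the microglia and macrophage list, at 755 and 759 FPKM.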

How the data were processed

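RNA-seq libraries of mouse retina were used as deposited. Per the methods, the authors aligned paired-end reads to GRCm38.p6 (Ensembl 101) with STAR 2.7.1a, quantified them with RSEM 1.3.3 and deposited tables of FPKM for genes and transcripts. Their comparisons, made with edgeR 3.36.0 in R 4.1.0, were not used here. FPKM are not counts. From the steps between low values, each library's depth was estimated (about 21.2 to 27.3 M fragments), with 75.7% to 90.8% of low values within 0.2 of a whole fragment, so the true depth is not known.

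Values were transformed as log2(FPKM + 0.1). Genes whose highest group mean exceeded 1 FPKM were tested, 16471 in all. Means of the 6 groups were fitted over the 12 libraries with limma 3.58.1 in R 4.3.3 (eBayes with a trend), with 6 residual degrees of freedom and Benjamini-Hochberg adjustment over all genes tested, and called at an adjusted p under 0.05. The fit was run on simulated normal values with planted changes. These lack the steps and zeros of low genes, so the run does not bear on such genes. Alternatives were pseudocounts of 1 and 0.5, no filter, TPM, quantile normalization, a correction for spliced gene length (GENCODE M21, 99.5% of genes, lowess span 0.3), a replicate block, the spread from the compared libraries alone, a fold-change rule modeled on the study's (p below 0.05 before adjustment, a change of more than 1 log2 unit either way and a mean above 1 FPKM in a compared group, applied to genes with limma and without the study's further condition on variance-mean ratios) and each library left out. Promoter sequences came from RefSeq. Python 3.11.15, pandas 2.3.3 and matplotlib 3.10.9 served for tables and figures. The members and all lists were chosen with earlier results of these data known. Named genes were the members, *Pax6* and *Mapk10*, for each list its most abundant gene and up to 2 with the largest called changes per comparison, the 10 genes most like the members, and genes overlapping a member; not every gene so selected is printed, and *Birc7*, *Clic6*, *Gpr143*, *Kera*, *Krt12*, *Krt14*, *Krt5*, *Lim2*, *Oca2* and *Slc24a5* were named after their values were seen.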

Additional observations from a re-analysis of the deposited data

Results flagged for a closer look

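These values are differences between log2 responses to NMDA from the limma model, and each passed an adjusted p under 0.05. The WT response minus the sh*Pax6* response was 2.97 for *Rgr*, 1.25 for *Rdh5*, 1.81 for *Rpe65* and 4.09 for *Ttr*. The *Rpe65* value lost its call in 2 of the 12 fits that left out a library, at equal library sums, with the length correction and with the spread from the compared libraries alone. The WT response minus the JNK3KO response was 0.59 for *Rdh5* and -2.07 for *Rpe65*. The *Rdh5* value went to -0.003 at equal library sums and lost its call in 6 of the 12 fits that left out a library, while that of *Rpe65* was called under every alternative. The sh*Pax6* response minus the JNK3KO response, a comparison added after the values had been seen, was -3.81 for *Rgr*, -3.88 for *Rpe65* and -3.64 for *Ttr*.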

How the results depend on the processing

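With 2 libraries per group and no control hairpin, limits are wide, and the cause of any change below was not tested. The count of members called with NMDA in WT retinas (4) became 2 under TPM, 1 under the length correction and 1 under the fold-change rule, and lay between 2 and 4 with a library left out. In sh*Pax6* retinas (5) it became 2 with the spread from the compared libraries alone. Between sh*Pax6* PBS and WT PBS (0) it became 1 with a pseudocount of 1, 1 after quantile normalization, 1 under the length correction and 1 with the replicate block, and lay between 0 and 1 with a library left out. For WT minus sh*Pax6* (4) it lay between 3 and 5 over the alternatives and between 3 and 6 with a library left out. For WT minus JNK3KO (2) it became 1 under the length correction and 1 under the fold-change rule, and lay between 1 and 3 with a library left out. For sh*Pax6* minus JNK3KO (3) it became 5 after quantile normalization, where lower calls over all genes went from 926 to 1666. Over the 48 values of members and comparisons, 5 calls were lost with the spread from the compared libraries alone. Under TPM 2 calls were lost with the sign kept, and under the length correction 4, beside the sign reversals given below. In each of 3 further settings 1 was lost: quantile normalization, no filter and the replicate block. Replicate differences correlated between groups at -0.10 to 0.09, so replicate numbers did not pair libraries, and with the replicate block the count in sh*Pax6* retinas was 4 and for sh*Pax6* minus JNK3KO also 4. Signs reversed in WT retinas for *Rdh5* under TPM (-0.04), *Ttr* under the length correction (-0.15) and *Pmel* under TPM (-0.26) and the length correction (-0.21). They reversed for *Tyrp1* in sh*Pax6* retinas after quantile normalization (-0.10) and the length correction (-0.018), and for *Rdh5* in JNK3KO retinas under the length correction (0.025). For WT minus JNK3KO they reversed for *Rdh5* under TPM (-0.003) and *Ttr* under TPM (-0.14) and the length correction (-0.60). For sh*Pax6* minus JNK3KO they reversed for *Tyrp1* under TPM (-0.055), quantile normalization (-0.47) and the length correction (-0.22). With a library left out, which assumes that the lone library varies like other groups, values that changed sign ran from -1.44 to 1.76 for *Tyrp1* in sh*Pax6* retinas, and in JNK3KO retinas from -0.16 to 0.047 for *Rdh5*, -0.19 to 0.25 for *Rgr* and -0.60 to 0.84 for *Tyrp1*. Between sh*Pax6* PBS and WT PBS they ran from -0.11 to 0.17 for *Ttr* and -0.056 to 0.61 for *Pmel*, and between JNK3KO PBS and WT PBS from -0.27 to 0.073 for *Rpe65* and -1.43 to 0.007 for *Tyrp1*. For *Tyrp1* they ran from -2.31 to 0.89 for WT minus sh*Pax6*, from -1.39 to 0.05 for WT minus JNK3KO and from -1.56 to 1.64 for sh*Pax6* minus JNK3KO.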
